A study of Caenorhabditis elegans with 2 samples.

Results

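The genes for the proteins of the cytosolic ribosome were followed through a map of where Y116A8C.19 was bound in the nematode Caenorhabditis elegans. The reference annotation gives this protein a zinc finger of the C3H1 type. Members were the protein-coding genes named rpl- or rps- in the Ensembl annotation of WBcel235, which is the ce11 build. They numbered 78 of 19973 protein-coding genes, 47 of them for the large subunit (rpl-) and 31 for the small subunit (rps-). The assay was chromatin immunoprecipitation followed by sequencing, in which DNA bound by a protein is pulled down with an antibody and the enriched regions of the genome are listed. Both samples were whole hermaphrodite L1 larvae of strain OP532, genotype unc-119(tm4063) III; wgIs532, in which the integrated transgene wgIs532 supplies Y116A8C.19 with GFP and FLAG at its C-terminal end, and the antibody recognised GFP. Larvae were hatched without food to synchronise them and collected 6 hours later. The 2 samples were biological replicates of a single group, so no condition was compared, and signal from whole larvae cannot be assigned to a tissue. What was measured is the tagged protein made from the transgene, and the control experiment was not analysed here.

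Each ribosome joins a large subunit, which forms peptide bonds, to a small subunit, which reads the messenger RNA. Cells make the ribosomal proteins in matched amounts from genes scattered over the genome, and growing larvae devote much of their transcription and translation to them. Several of these genes carry small nucleolar RNAs (snoRNAs) in their introns, which guide chemical modification of ribosomal RNA, so that a single promoter can serve both a ribosomal protein and a snoRNA.

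For each member the strongest region was taken whose summit, the position the authors give as a region's peak, lay no further than 1000 bp before and 200 bp past the annotated start of the gene record, its 5′ end. Of the 198 sites in the authors' list thresholded by the irreproducible discovery rate (IDR), 9 had a summit in the window of a member. The large subunit genes were rpl-3, rpl-20, rpl-15, rpl-35 and rpl-12, and the small subunit genes were rps-12, rps-20, rps-23 and rps-26. Windows of 151 bp centred on 5 of these summits are shown because each holds at least 2 of the short words that recurred among the 9. They were read from the RefSeq genome of WBcel235 (ce11) on the strand of the ribosomal protein gene. The rpl-3 window is chrIII:3867481-3867631 on the plus strand, and the rpl-35 window is chrIII:7854598-7854748 on the plus strand. On the minus strand lie the windows of rpl-20 (chrIV:4750018-4750168), rpl-15 (chrIV:654844-654994) and rps-23 (chrIV:12391255-12391405). Capitals mark copies, on either strand, of 4 words of 7 letters that several windows shared, and copies of the 8-letter word CTAGGCCA with up to 1 mismatch.
rpl-3: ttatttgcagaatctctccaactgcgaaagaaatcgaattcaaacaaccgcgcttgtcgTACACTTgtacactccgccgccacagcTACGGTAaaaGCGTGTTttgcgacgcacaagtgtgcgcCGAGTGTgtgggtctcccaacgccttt
rpl-20: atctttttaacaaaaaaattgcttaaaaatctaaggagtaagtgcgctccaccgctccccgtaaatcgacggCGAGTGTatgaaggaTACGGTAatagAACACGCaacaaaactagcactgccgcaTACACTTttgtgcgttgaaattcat
rpl-15: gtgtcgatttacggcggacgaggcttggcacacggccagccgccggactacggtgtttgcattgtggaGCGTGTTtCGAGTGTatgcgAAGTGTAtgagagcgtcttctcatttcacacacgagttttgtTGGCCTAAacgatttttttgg
rpl-35: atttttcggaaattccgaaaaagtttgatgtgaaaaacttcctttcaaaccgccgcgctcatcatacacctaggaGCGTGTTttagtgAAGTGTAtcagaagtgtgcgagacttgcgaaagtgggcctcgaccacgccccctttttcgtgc
rps-23: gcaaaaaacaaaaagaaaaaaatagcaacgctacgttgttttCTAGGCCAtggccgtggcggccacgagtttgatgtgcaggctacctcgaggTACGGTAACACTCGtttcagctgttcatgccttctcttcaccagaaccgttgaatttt

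The words in capitals were picked after the windows had been read, as the 7-letter words found on either strand in at least 4 of the 9 member windows and in under 10% of the 189 other IDR windows. Word lengths next to 7 had been looked at as well. The word AACACGC, whose reverse complement reads GCGTGTT, stood in the windows of rpl-3, rpl-20, rpl-15 and rpl-35. The same 4 genes held AAGTGTA, which on the other strand reads TACACTT. The windows of rpl-3, rpl-20, rpl-15 and rps-23 held ACACTCG, which reads CGAGTGT on the other strand. The last word, TACCGTA with reverse complement TACGGTA, stood at rpl-3, rpl-20, rps-23 and rps-20. The windows of rpl-3 and rpl-20 thus held all 4 words, and those of rpl-12, rps-12 and rps-26 held none. No copies overlapped in the windows shown. In rps-23 the copies of TACGGTA and ACACTCG lay end to end. Since the words were selected on the 9 windows, their counts there are a description and carry no test.

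The rarity of these words in the other IDR windows was fixed by the way they were picked, so their shares there are given as a description. AACACGC stood in 12 of 189 other IDR windows (6.35%) and in 1.28% of the 2491 windows of the pooled list outside the IDR list. AAGTGTA stood in 3.17% and 2.45%, ACACTCG in 1.06% and 1.16%, and TACCGTA in 2.12% and 1.93% of the same sets. Among the 69 members with no IDR summit, the 500 bp upstream of the 5′ end held ACACTCG in 13 genes (18.8%), against 2.63% of all 19973 protein-coding genes. TACCGTA also stood in 13 of these 69 stretches (18.8%), against 7.24% of all genes. Stretches of diverging genes can overlap, so that a single copy may count for both genes. The genes rps-10 and rpl-24.1, which begin 610 bp apart, are both among the 13 for each word. AACACGC stood in 3 of 69 (4.35%, against 3.77% of all genes), and AAGTGTA in 3 of 69 (4.35%, against 7.94% of all genes). Of the 13 such members with ACACTCG, 4 had a region in the pooled list (30.8%), namely rpl-1, rpl-11.2, rpl-22 and rpl-34, and 12 of the 56 without the word had one (21.4%). For TACCGTA the counts were 5 of 13 or 38.5%, namely rpl-1, rpl-11.2, rpl-34, rpl-7 and rps-1, and 11 of 56 without the word (19.6%). For AAGTGTA they were 2 of 3 with the word and 14 of 66 without it (21.2%). AACACGC had the opposite order, with 0 of 3 with the word and 16 of 66 without it (24.2%). Pooled summits were counted out to 1000 bp upstream, beyond the 500 bp searched for words. Those of rpl-1 and rpl-7, which held a word, and of rpl-43 and rps-0, which held none, lay further than 500 bp upstream. A word and a region counted for the same gene therefore need not coincide. These counts leave out the members with an IDR summit, rest on few genes and were not tested.

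A pair of 8-letter words had come from an earlier search on part of the same IDR list, which may have included members. That search may have raised their shares in the other IDR windows, so these shares are given as a description. GAGTACAC, with up to 1 mismatch, stood in none of the 9 member windows and in 70 of the 189 others (37%), and in 7.27% of the pooled windows outside the list. CTAGGCCA stood in 3 of the 9 windows, exactly in rps-23 and rps-26 and as TGGCCTAA in rpl-15, which is its reverse complement with 1 mismatch. The share in the other IDR windows was again 37%, and 6.22% in the remaining pooled windows. Either word stood in 3 of 9 member windows and in 100 of 189 others (52.9%). A match of letters does not show a binding site, and a window without a match says nothing of which protein bound there. The median GC content was 46.4% in the 9 member windows (39.1 to 51.7%), 42.4% in the other IDR windows and 37.1% in the other pooled windows. Whether base composition bears on the counts of words was not tested.

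The deposited lists rank regions by the authors' signal value. No source used here states its scale or how it was normalized. Signal was therefore used to order regions within a list and never to compare lists, and read depth is unknown. The nuclear part of the lists held 22595 regions for replicate 1, 22356 for replicate 2, 2689 for the pooled samples and 198 after the IDR threshold. The 198 IDR sites were the 198 strongest of the pooled list, with signals from 55 to 247.7, and all carried the same −log10 q-value of 2.658, so this column does not order them.

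The strongest region belonged to rpl-3, whose protein reaches toward the peptidyl transferase centre in ribosomes of yeast and humans. Its pooled signal was 124.1 (rank 28 of 2689), with 74.6 (rank 34) in replicate 1 and 42.4 (rank 37) in replicate 2. The summit lay 298 bp upstream of rpl-3, and the nearest other protein-coding 5′ end, that of acs-19, was 3067 bp away. The rpl-3 site thus had a high rank in both replicates and no competing gene start.

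For rpl-20, another large subunit gene, the pooled signal was 108.7 (rank 38), with 65.8 (rank 42) in replicate 1 and 47.0 (rank 26) in replicate 2. The summit lay 315 bp upstream of rpl-20 and 147 bp upstream of Y17G9B.5, which is transcribed in the opposite direction and was nearer. For rpl-15, which also hosts the snoRNA genes K11H12.13 and K11H12.12, the pooled signal was 107.9 (rank 39), with 71.0 (rank 37) and 38.9 (rank 54) in replicates 1 and 2. Its summit lay 343 bp upstream of rpl-15 and 471 bp upstream of K11H12.8, so the ribosomal protein gene was the nearer. Both genes stood high in either replicate list.

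For rpl-35, whose protein lies beside the exit of the peptide tunnel in yeast and human ribosomes, the pooled signal was 84.5 (rank 77), with 55.6 (rank 69) and 33.4 (rank 71) in replicates 1 and 2. The summit lay 461 bp upstream, with the next protein-coding 5′ end, that of tag-307, 2569 bp away. The last large subunit gene, rpl-12, codes for a protein at the base of the stalk that recruits translation factors. Its pooled signal was 62.7 (rank 147), and the replicates differed, with 39.9 (rank 150) in replicate 1 and 15.9 (rank 1009) in replicate 2. The −log10 q-value of the rpl-12 region was 2.71 in replicate 1 and 0.496 in replicate 2. The summit, 22 bp upstream of rpl-12 and 371 bp upstream of lin-54, was the closest of the 9 to its gene. The rpl-12 peak was thus carried by replicate 1, although the summits of both replicates lay 8 bp apart.

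The small subunit was led by rps-23, whose protein is part of the decoding centre of yeast and human ribosomes and whose gene holds the snoRNA gene F28D1.13. The pooled signal was 79.0 (rank 92), with 41.0 (rank 141) and 36.3 (rank 63) in replicates 1 and 2. Its summit stood almost midway between diverging genes, 277 bp upstream of rps-23 and 257 bp upstream of dpm-3, which codes for a subunit of dolichol-phosphate mannose synthase. For rps-12, whose protein belongs to the head of the small subunit, the pooled signal was 59.1 (rank 168), with 34.2 (rank 217) and 25.6 (rank 132). This summit lay 228 bp upstream of rps-12, which holds the snoRNA genes F54E7.10 and F54E7.11, and 65 bp upstream of ska-3, the gene of a spindle and kinetochore protein. At both genes the other 5′ end was the nearer.

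Both remaining small subunit sites were on chromosome I. For rps-20, whose protein lies in the head of the small subunit in yeast and human ribosomes, the pooled signal was 73.7 (rank 104), with 38.9 (rank 158) and 29.2 (rank 99) in replicates 1 and 2. The summit lay 252 bp upstream of rps-20 and 145 bp upstream of ekl-4, and the gene of miRNA cel-mir-354 began 864 bp away on the rps-20 side. For rps-26, whose protein lines the exit of the messenger RNA channel in yeast and human ribosomes, the pooled signal was 66.0 (rank 128), with 37.6 (rank 171) and 26.8 (rank 125). That summit lay 413 bp upstream of rps-26, but 44 bp upstream of tmem-107, a gene of the ciliary transition zone, and 105 bp upstream of the snoRNA gene F39B2.14, which lies outside rps-26 on the opposite strand. All 4 small subunit summits had a different protein-coding 5′ end nearer than that of the ribosomal gene.

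**Figure D1:**
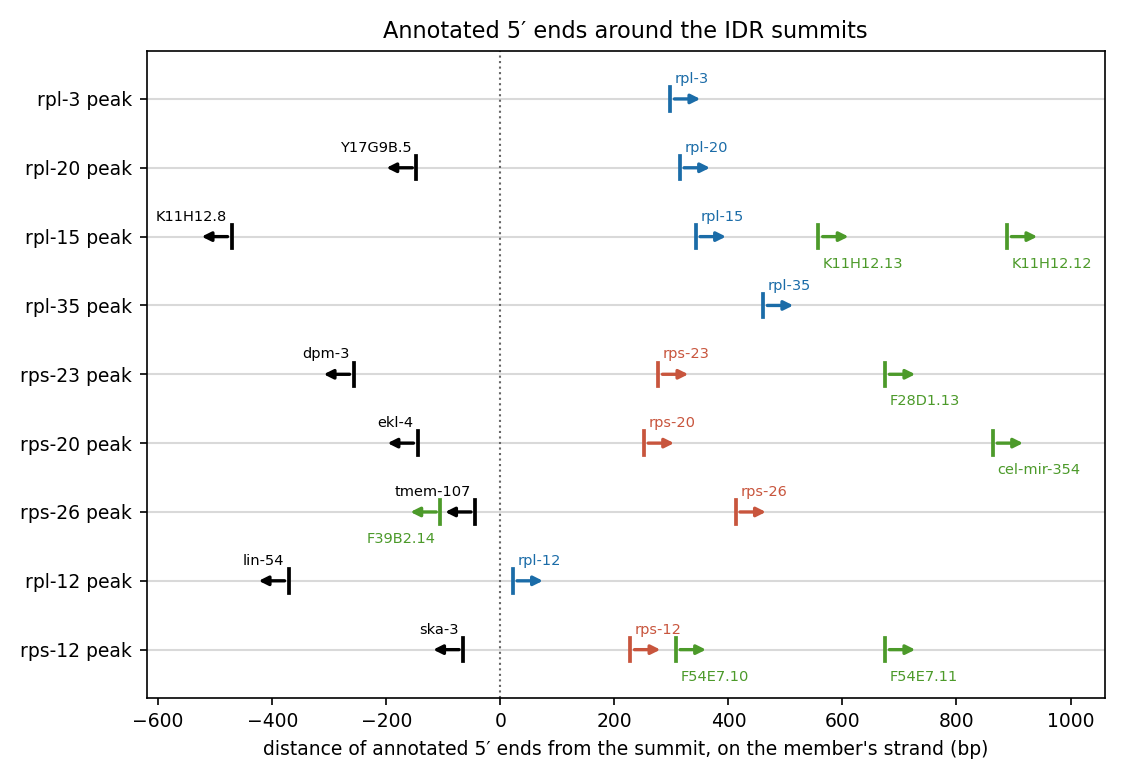
Annotated 5′ ends (vertical bars, with arrows in the direction of transcription) around the 9 IDR summits at ribosomal protein genes, in base pairs from the summit (dotted line) on the strand of the member; blue marks large subunit genes, orange small subunit genes, black other protein-coding genes and green non-coding genes. Gene starts face away from the summit at 7 of the 9 sites, and rpl-3 and rpl-35 have no second protein-coding start in view.

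The map of 5′ ends around the summits shows how these sites sit between genes. None of the 9 summits lay inside an annotated gene, piRNA genes left aside. In 7 of 9 cases a protein-coding gene on the opposite strand began within 1000 bp upstream of the ribosomal protein gene, at a gap of 293 bp for rps-12 to 814 bp for rpl-15. With the list alone, a summit between diverging genes cannot be told apart as belonging to the ribosomal protein gene or to its partner.

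Set against all genes, IDR summits were more frequent at ribosomal protein genes. A summit stood in the window of 9 of 78 members, 11.5% with an exact 95% binomial interval of 5.41 to 20.8%, against 1.18% of all 19973 protein-coding genes (235). Counting only genes with no other protein-coding 5′ end nearer to the summit left 4 of 78 members (5.13%, interval 1.41 to 12.6%), against 0.761% of all genes. Those 4 were the large subunit genes rpl-3, rpl-15, rpl-35 and rpl-12. Intervals throughout cover counting error of genes only. Members were proposed with earlier results in view, so the counts are descriptions without a test. At the 99 strongest IDR sites the members numbered 5 (6.41%), against 0.641% of all genes.

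A region of the pooled list, which reaches down to a signal of 24.5, stood in the window of 25 members (32.1%, 21.9 to 43.6%), against 6.66% of all genes. The 25 genes had 25 distinct regions. Their median pooled signal was 38.9 (median rank 382), against 30.8 (median rank 852) over all 1331 genes with a pooled summit. Within the IDR list the median signal of members was 79, the same as over all 235 genes.

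The first of the 16 members below the IDR threshold was rps-4, a snoRNA host, with a pooled signal of 43.7 (rank 292) and with 31.8 (rank 246) and 11.6 (rank 5309) in replicates 1 and 2. Just under it stood rps-1 with 43.0 (rank 305), at 21.2 (rank 879) in replicate 1 and 21.4 (rank 246) in replicate 2. The weakest members inside the threshold were rps-12 at 59.1 and rpl-12 at 62.7, so the members nearest to the lowest IDR signal of 55 stood at 59.1 above it and at 43.7 under it. The rps-1 summit, 261 bp upstream of the gene, lay inside the non-coding genes F56F3.10 and F56F3.11 and 507 bp upstream of ifet-1, a translational repressor gene that shared the region. For rps-24 the pooled signal was also 43.0 (rank 306), with 41.5 (rank 137) in replicate 1 but 8.8 (rank 14126) in replicate 2.

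The same imbalance was seen further down. At rpl-43 the pooled signal was 38.9 (rank 382), with 31.4 (rank 249) in replicate 1 and 8.3 (rank 17163) in replicate 2, where the summits lay 732 bp apart. At rpl-7A, a host of 2 snoRNA genes, the pooled signal was 34.5 (rank 546), with 31.8 (rank 243) in replicate 1 and no listed region in replicate 2. In the opposite direction, rpl-38 had a pooled signal of 33.8 (rank 580) with 15.5 (rank 4054) in replicate 1 and 20.8 (rank 268) in replicate 2. For rps-15 the values were 34.3 (rank 557), 14.2 (rank 5915) and 16.3 (rank 867), and for rpl-34 they were 27.6 (rank 1488), 10.5 (rank 17258) and 18.0 (rank 518). The rpl-22 region (pooled signal 36.6, rank 456) stood at ranks 604 and 2159, and its summit fell on the 5′ end of ify-1, the securin gene. None of the ribosomal protein genes named in this paragraph ranked within 198 in either replicate list. The imbalance in rank was smallest at rpl-22, whose replicate summits lay 32 bp apart.

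The remaining pooled regions ran from rps-19 (30.1, rank 977) through rpl-11.2 (29.9, rank 989), rps-0 (29.1, rank 1144), rpl-7 (27.9, rank 1422), rpl-14 (25.9, rank 2035) and rpl-1 (25.7, rank 2145) to rps-28 (24.8, rank 2539). The summits for rps-0 and rpl-1 lay inside the divergent genes rbg-3 and Y71F9AL.9. The rpl-7 summit stood 848 bp upstream and nearer to rab-11.1, at 133 bp. Among the 16 members with a pooled but no IDR summit, another protein-coding 5′ end was nearer at 6.

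**Figure D2:**
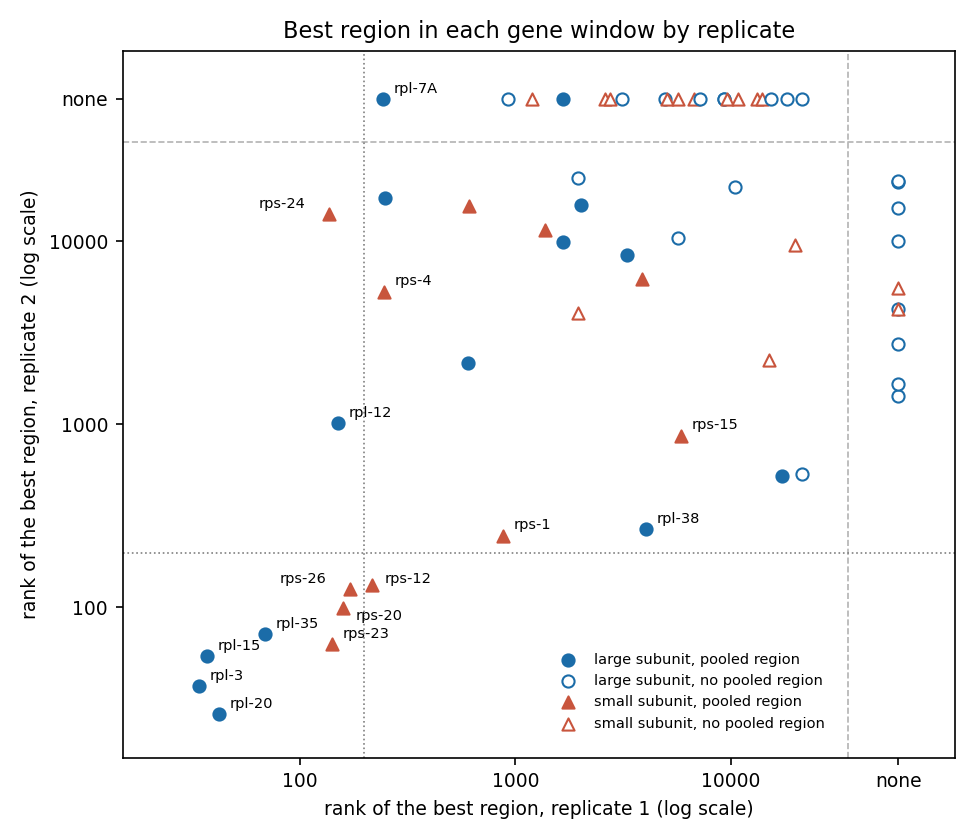
Rank of the best region in the window of each of the 61 members with a listed region, in the list of replicate 1 (horizontal, log scale) and of replicate 2 (vertical, log scale), where a low rank is a strong region; filled symbols have a pooled region, circles are large and triangles small subunit genes, dotted lines mark rank 198 and the margins hold genes with no region in that list. The lower left corner holds 7 genes that ranked within 198 in both lists, and the other genes lie above rank 198 in at least 1 list or have no region there.

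Of the 9 IDR members, 7 ranked within 198 in both replicate lists. The others were rpl-12, at rank 1009 in replicate 2, and rps-12, which missed that cut narrowly at rank 217 in replicate 1. Of the 198 best regions, those of replicate 1 stood at 9 members (11.5%), against 1.12% of all genes, and those of replicate 2 at 8 members (10.3%), against 1.07% of all genes. The plot of replicate ranks shows the 7 genes found in both, namely rpl-3, rpl-20, rpl-15, rpl-35, rps-23, rps-20 and rps-26. With replicate 2 alone rpl-12 left the set, and with replicate 1 alone rps-12 left it (rank 217) and rps-24 entered. Replicate summits of the 9 IDR members lay 1 to 99 bp apart. Of the 30 members with a region in both lists, 18 had summits within 100 bp (60%), against 45.8% of the 2576 genes with a region in both lists. Those 18 comprised 16 of the 23 such members with a pooled region and 2 of the 7 without.

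Taken at any rank, the replicate lists reached most members. A replicate 1 region stood in the window of 51 members (65.4%, 53.8 to 75.8%), against 30.1% of all genes, and a replicate 2 region in that of 40 members (51.3%, 39.7 to 62.8%), against 29% of all genes. Both lists had a region at 30 members (38.5%), against 12.9% of all genes. The replicate lists served as input to the IDR procedure and hold background as well as peaks, so a region there does not show binding.

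Accounting for all 78 members, 9 had an IDR summit and 16 more a pooled summit. A further 7 had regions in both replicate lists but none in the pooled list, namely rpl-5, rpl-24.1, rps-10, rps-16, rpl-30, rps-14 and rpl-29. Another 19 had a region in the list of replicate 1 alone and 10 in that of replicate 2 alone. Of these, the best ranked were rpl-31 (rank 921, signal 21.0) and rps-27 (rank 1190, signal 19.9) in replicate 1, and rpl-25.2 (rank 1430) and rpl-18 (rank 1660, signal 14.6) in replicate 2. The best in either list was rpl-5, with rank 537 (signal 17.8) in replicate 2 and rank 21502 (signal 9.6) in replicate 1. The remaining 17 members had no listed region in the window. They were rpl-2, rpl-4, rpl-11.1, rpl-16, rpl-19, rpl-25.1, rpl-26, rpl-28, rpl-32, rpl-33, rpl-36, rpl-41.1, rps-3, rps-6, rps-8, rps-17 and rps-22. A gene without a listed region cannot be called unbound, since depth is unknown.

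Membership went by name, and whether members whose names differ only in a final number code for the same protein was not checked. How reads that match both genes of such a pair were treated is unknown. The rpl-11.2 promoter had a pooled region and that of rpl-11.1 had no region in any list. The rpl-25.2 promoter had a replicate 2 region and rpl-25.1 none. Both rpl-24.1 and rpl-24.2 had a replicate 1 region, at ranks 1952 and 3145. The genes rpl-41.1 and rpl-41.2 lie side by side, and the replicate 1 summit in the window of rpl-41.2 (rank 9315) fell inside rpl-41.1, past the window of that gene. Of the divergent pairs in which both genes code for ribosomal proteins, rps-10 and rpl-24.1 shared a replicate 1 region at rank 1952, and rpl-39 and rps-30 shared a replicate 2 region at rank 4276. The third such pair, rps-14 and rpl-36, shared none. A shared region was counted for both of its genes.

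Some regions fell outside the window. The fib-1 gene, for the rRNA methyltransferase fibrillarin, had an IDR peak at signal 69.7 (rank 117), and rps-16 lies downstream of fib-1 on the same strand. That summit was 1788 bp upstream of rps-16, so the gene is not counted among the 9. Pooled summits also stood 1084 bp upstream of rpl-41.1 (rank 792) and 1202 bp upstream of rpl-25.2 (rank 2472).

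The subunits had like shares of genes with a listed site. An IDR summit stood at 5 of 47 large subunit genes (10.6%, 3.55 to 23.1%) and at 4 of 31 small subunit genes (12.9%, 3.63 to 29.8%). A pooled summit stood at 14 of 47 (29.8%, 17.3 to 44.9%) and at 11 of 31 (35.5%, 19.2 to 54.6%). These intervals overlap over most of their length. Among the 99 strongest IDR sites there were 4 large subunit genes (8.51%, 2.37 to 20.4%) and 1 small subunit gene (3.23%, 0.0816 to 16.7%). The median IDR signal was 107.9 over the 5 large and 69.8 over the 4 small subunit genes. The median pooled signal had the opposite order, 35.5 over 14 and 43 over 11 genes. In the replicate 1 list a region of any rank stood at 57.4% of large and 77.4% of small subunit genes, with intervals of 42.2 to 71.7% and 58.9 to 90.4%, and in replicate 2 at 51.1% and 51.6%.

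**Figure D3:**
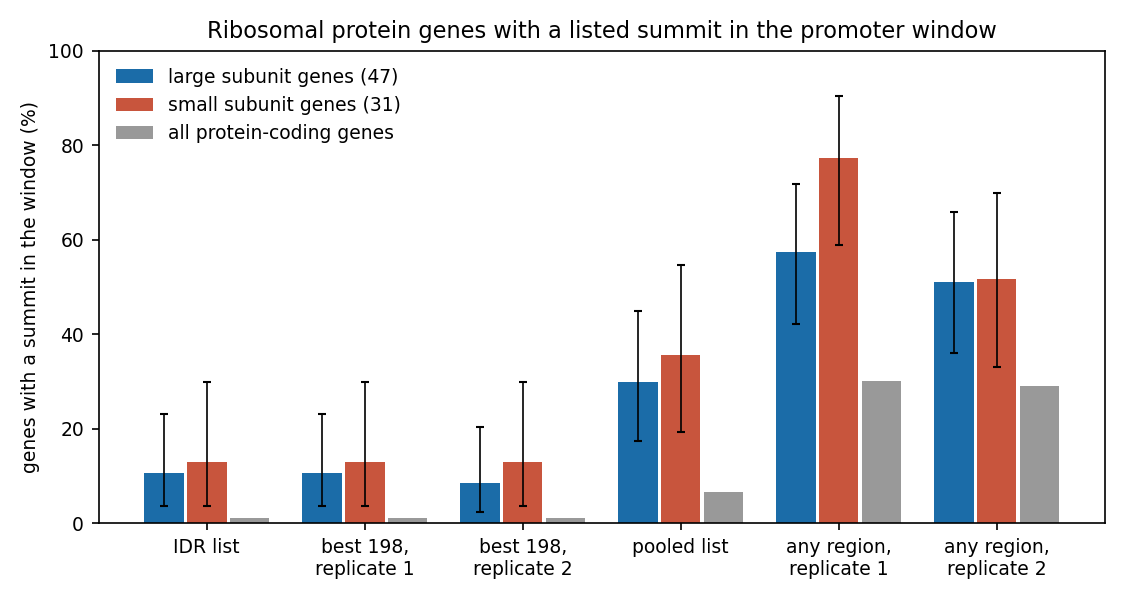
Share of large subunit genes (blue), small subunit genes (orange) and all 19973 protein-coding genes (grey) with a summit in the window, in percent, by list; error bars are exact 95% binomial intervals over genes. In every list both subunits stand above the grey bar, and their intervals overlap each other.

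The share of genes by list, drawn for both subunits, shows intervals that overlap in each of the lists. By count, the subunits differed in nearness. Another protein-coding 5′ end was nearer to the IDR summit for 1 of 5 large subunit genes (rpl-20) and for 4 of 4 small subunit genes. Over all genes with an IDR summit it was 83 of 235 (35.3%). Among pooled regions it was 5 of 14 large subunit genes, 6 of 11 small subunit genes, 11 of 25 members together (44%) and 349 of 1331 genes (26.2%). The difference between the subunits was not tested.

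Ribosomal protein genes often began beside a divergent neighbour. A protein-coding gene on the opposite strand began within 1000 bp upstream of 47 of 78 members (60.3%), against 3539 of 19973 genes (17.7%). Among all 235 genes with an IDR summit the share was 55.7%. The split by divergent partner was made after the values had been seen. With a partner, 7 of 47 members (14.9%) had an IDR summit, against 131 of 3539 genes (3.7%). Without a partner the counts were 2 of 31 members (6.45%), rpl-3 and rpl-35, against 104 of 16434 genes (0.633%). For pooled summits the shares were 36.2% of members and 14.7% of genes with a partner, and 25.8% of members and 4.92% of genes without. The shares of members were the higher in both arrangements, but the IDR share without a partner rests on 2 genes. Whether the arrangement bears on the shares was not tested.

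Of the 78 members, 13 held 19 of the 346 annotated snoRNA genes. They were rpl-2, rpl-4, rpl-6, rpl-7, rpl-7A, rpl-15, rpl-24.1, rpl-26, rps-4, rps-12, rps-13, rps-23 and rps-29. An IDR summit stood at 3 of these 13 (23.1%, 5.04 to 53.8%), namely rpl-15, rps-23 and rps-12, and at 6 of the 65 other members (9.23%, 3.46 to 19%). A pooled summit stood at 6 of 13 (46.2%, 19.2 to 74.9%), with rps-4, rpl-7A and rpl-7 added, and at 19 of 65 (29.2%, 18.6 to 41.8%). At rpl-2, rpl-4 and rpl-26, which also hold a snoRNA gene, no list had a region. The intervals overlap, and 13 genes are few. In the replicate 1 list a region of any rank stood at 76.9% of the 13 and 63.1% of the 65, against 30.1% of all genes. In replicate 2 the order was reversed, at 38.5% and 53.8%, against 29% of all genes. Both lists had a region at 38.5% of either group, against 12.9% of all genes. Over all protein-coding genes the IDR and pooled shares were 1.18% and 6.66%. Among the 146 other protein-coding genes that hold a snoRNA gene, a group added after the values had been seen, 6 (4.11%, 1.52 to 8.73%) had an IDR summit and 20 (13.7%, 8.57 to 20.4%) a pooled summit.

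Summits at ribosomal protein genes lay upstream of the annotated 5′ end. This held for 25 of 25 pooled summits, against 90% over all genes with a pooled summit. The median position was 315 bp upstream, with quartiles at 454 and 261 bp upstream, and over all genes it was 260 bp upstream. For the 9 IDR summits the median was 298 bp upstream, and 218 bp over all 235 genes. In the replicate lists the medians of members and of all genes were closer and differed in order. They were 348 and 331 bp upstream in replicate 1, and 342.5 and 353 bp upstream in replicate 2. Between 500 and 200 bp upstream, a band chosen after the positions had been seen, lay 19 of 25 pooled summits (76%), against 35.6% over all genes. In the same band lay 8 of 9 IDR summits, all but that of rpl-12, against 37% over all genes. The replicate lists gave 25 of 51 (49%) and 20 of 40 (50%), against 28.2% over all genes in both. Many worm genes are trans-spliced, so an annotated 5′ end need not be the start of transcription, and distances are to the annotation.

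**Figure D4:**
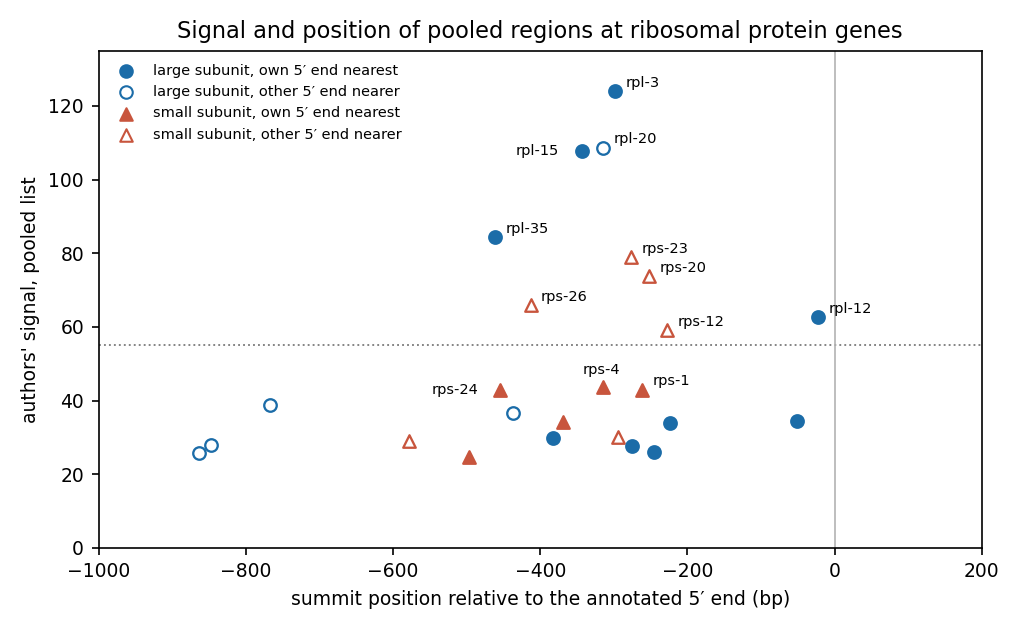
Authors' signal in the pooled list (vertical, no stated unit) against the position of the summit relative to the annotated 5′ end (horizontal, bp, negative is upstream) for the 25 members with a pooled summit; filled symbols have their own 5′ end nearest, open symbols another, and the dotted line marks the lowest IDR signal of 55. The 8 IDR members other than rpl-12 lie between 461 and 228 bp upstream, and the 4 small subunit members above the line are all open.

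The plot of signal against position shows that the large subunit genes rpl-43, rpl-7 and rpl-1 had the most distant summits, at 767, 848 and 863 bp upstream, and that each of these was nearer another gene. The IDR members lay on 3 chromosomes, with 4 of 17 members on chromosome IV, 3 of 18 on III and 2 of 23 on I. A pooled summit stood at 9 of 17 members on IV, 7 of 23 on I, 5 of 18 on III, 2 of 10 on II, 1 of 8 on V and 1 of 2 on X. These numbers are too small to order the chromosomes, and shares of all genes per chromosome were not computed.

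Genes of related function were counted in the same way. Over all protein-coding genes the share was 1.18% for IDR summits and 6.66% for pooled summits. Of 6 ribosomal protein genes with other names (rla-0, rla-1, rla-2, ubl-1, ubq-2 and rack-1), 0 had an IDR summit and only rack-1, which codes for a scaffold on the small subunit, had a pooled summit (32.9, rank 648). Of 70 mitochondrial ribosomal protein genes, 2 had an IDR summit (2.86%, 0.348 to 9.94%) and 12 a pooled summit (17.1%). Those with an IDR summit were mrps-35 (91.5) and mrpl-18 (85.9), the latter with its summit nearer the 5′ end of C14B9.8. They were followed in the pooled list by mrps-7 (36.5), by mrpl-1 and mrps-24 with a shared region (32.1), and by mrpl-55 (31.9).

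Of 45 translation factor genes, 3 had an IDR summit (6.67%, 1.4 to 18.3%) and 14 a pooled summit (31.1%). The initiation factor subunit genes eif-3.B (136.9) and eif-3.E (56.1) and the mitochondrial elongation factor gene tufm-2 (96.4) had IDR summits. The tufm-2 summit lay nearer the 5′ end of exoc-7. The elongation factor genes eef-1B.1 (52), eef-1G (37.2) and eef-1A.1 (33.8), and ifet-1 (43, the region of rps-1), followed in the pooled list. Of 35 matched genes for ribosome biogenesis and RNA polymerase I, 2 had an IDR summit (5.71%, 0.7 to 19.2%) and 8 a pooled summit (22.9%). Those with an IDR summit were fib-1 (69.7) and nol-56 (55.2), whose proteins belong to the particle that methylates ribosomal RNA. They were followed in the pooled list by rbd-1 (46.8), pro-1 (46.3), toe-1 (38.3) and rpac-19 (35.4). The pooled share of translation factor genes was close to the 32.1% of the ribosomal protein genes. Counting only genes with no other protein-coding 5′ end nearer to the IDR summit left 1 of 70 mitochondrial ribosomal protein genes (1.43%). It left 2 of 45 translation factor genes (4.44%) and 2 of 35 biogenesis genes (5.71%). For members and all genes these shares were 5.13% and 0.761%. Some pooled regions named here, such as those of eef-1A.1 and rbd-1, also lay nearer another gene. The IDR share of each of these lists had an interval that overlaps the 5.41 to 20.8% of the ribosomal protein genes, so no order among the lists is drawn.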

How the data were processed

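Lists of regions on ce11 were used: 1 per replicate, 1 pooled and 1 IDR-thresholded. The deposited lists hold the authors' signal value for each region and a −log10 q-value. No source used here names the aligner, the caller or the IDR threshold. The 4 lists on ce10 and 2 mitochondrial regions were not used, and no coordinates were converted. Signal ranked regions within a list only. Depth is unknown, so exact (Clopper-Pearson) intervals cover counting error of genes only.

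Gene 5′ ends came from Ensembl release 115 and sequence from the RefSeq genome, both of WBcel235. A region was placed by its summit, from 1000 bp upstream to 200 bp downstream of a 5′ end. Nearness was taken over protein-coding 5′ ends. Elements were counted within 75 bp of the summit on both strands. Of 41 biogenesis symbols 35 matched. The members, lists and elements were chosen with earlier results of these data known. Named genes were all members with an IDR or pooled summit, the 5 best others by replicate rank, those with no region, up to 4 more pooled genes per comparison list, nearer neighbours and snoRNA genes inside. rpl-39, rps-30, members whose names differ only in a final number, paired members and those with a word in their promoter were named after their values were seen. Nothing was tested, since members are not replicates. The labels give the 2 samples as separate biological replicates of 1 group. The code for window assignment was checked on simulated data, with 200 of 200 planted summits recovered among 2000 genes. Those summits were planted inside the windows, so this checks the code and not which gene a region belongs to. Alternatives were other windows, overlap in place of summits, transcript 5′ ends, either replicate alone and the 99 stronger sites. Computations ran in Python 3.11.15 with SciPy 1.17.1, pandas 2.3.3, NumPy 2.4.6 and Matplotlib 3.10.9.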

Additional observations from a re-analysis of the deposited data

How the results depend on the processing

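Of 56 recomputed values, 51 stayed within 1.5 times the reported count or within the spread of the replicates, and 5 did not. With the 99 stronger sites in place of 198, members with an IDR summit numbered 5, small subunit members 1 and members with another 5′ end nearer 2. The same 9 genes had an IDR summit with 500 bp windows, with any overlap in place of the summit and with every transcript 5′ end, and a window reaching 2000 bp upstream gave 10 by adding rps-16. Using the 198 best regions of either replicate alone gave 8 to 9 members, and pooled-list members numbered 18 to 28 across all settings. The median position of the best replicate 1 region was -348 bp. Leaving out replicate 2 gives that same value by construction, so it is no check, although it is counted among the 51. Replicate 2 alone gave -342.5 bp. The median was -254 bp with a window of 500 bp to either side, which by construction holds no summit further upstream. No paired analysis was possible because there was 1 group. Unknown depth and signal scale limit what can be said of members without a listed region, and 2 replicates are too few to look for outliers.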
